A study of Triticum aestivum with 4 samples.

Results

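Gliadins are the monomeric prolamins of wheat grain. They are made in the endosperm, carried into protein bodies and vacuoles, and later serve the seedling as a store of nitrogen and sulphur. Together with the polymeric glutenins they form gluten, in which gliadins give dough its viscosity and extensibility. Gamma-gliadins come from genes of the Gli-1 loci and alpha-type gliadins from those of the Gli-2 loci. Both are multigene families of closely similar copies, and their transcripts are known to accumulate mainly as the endosperm fills.

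The values described here belong to 2 gliadin genes, the gamma-gliadin gene LOC543214 (synonyms GAG56D and Gli-1) and the alpha-type gliadin gene LOC543211 (synonyms gli-2 and Glia), among 771 genes that the array's annotation names. The array's annotation gives 4 of the 61290 probe sets to them, 3 to LOC543214 and 1 to LOC543211. Of those of LOC543214, 2 are Ta.28632.1.S1_x_at and Ta.28632.1.A1_at, and the remaining one, from another transcript cluster, is called the lead gamma-gliadin probe set below. A further 3 probe sets have no listed gene but belong to the cluster of the lead probe set by the first part of their names, and they are kept apart throughout. The clusters of the others hold no further probe set. The genes were chosen by the measured values of 1 array, Domain replicate 3, in which a probe set of each stood out, so their values are a description and carry no test.

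The study measured whole developing seed of hexaploid wheat taken 5 days after spikes were tagged at visible anthers. The 2 genotypes, Domain and RL4452, are the parents of a doubled haploid mapping population and were grown in field rows with 3 replications. The labels name no treatment, transgene or mutation for either genotype. Each genotype has 2 arrays, biological replicates 1 and 3, and each holds seeds collected to fill a tube, with all seed tissues together. In such bulk tissue, fewer cells of a type and less RNA per cell cannot be told apart.

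Each value is a ratio to the median of that probe set across the arrays, given as log2. A log2 value of 0 therefore stands for the midpoint of the 2 middle arrays on the linear scale, and levels cannot be compared between probe sets. For the same reason the labelled tissue could not be checked against its markers. Beyond the shared location, the labels describe the replicates only as biological, so p-values measure the spread between these samples. Over 61179 probe sets, log2 differences between arrays had an SD of 0.457 within Domain and 0.499 within RL4452, and of 0.509 to 0.618 across genotypes.

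Gamma-gliadin signal differed widely between the probe sets of LOC543214. The lead probe set read 0.33 in Domain replicate 1 and 4.05 in Domain replicate 3, while RL4452 replicates 1 and 3 read -0.61 and -0.43. Domain replicate 3 stood far above the rest, and the other Domain array was above both of RL4452. As ratios these were 1.26, 16.6, 0.653 and 0.741, so Domain replicate 3 was 13.2-fold above the next highest array. The other 3 arrays spanned 0.95 log2 units.

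The probe set Ta.28632.1.S1_x_at of the same gene read -0.32 and 0.73 in Domain replicates 1 and 3, while RL4452 replicates 1 and 3 read -0.15 and 0.13. Domain replicate 3 was again the highest, by 1.51-fold, while Domain replicate 1 was the lowest, so the genotypes overlapped. Ta.28632.1.A1_at read 0.01 and 0.10 in the Domain arrays, and the RL4452 arrays read -0.01 and -0.13. Its 4 values lay close together, with Domain replicate 3 highest by 1.06-fold. Both Ta.28632. probe sets were annotated from 1 sequence record and the lead probe set from another, so the name LOC543214 covers values that did not move together.

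The code in a probe set's name gives the orientation of the array's consensus sequence, S1 for sense and A1 for antisense. Both orientations are present for the Ta.28632. record, and the A1 probe set was the flatter. Over the whole array the range across the 4 arrays had a median of 0.50 for 10643 A1 probe sets and 0.50 for 50463 S1 probe sets. Domain replicate 3 was over 2-fold above every other array for 0.160% of A1 and 0.273% of S1 probe sets. The part of orientation in the flat profile was not tested.

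The alpha-type gliadin gene LOC543211 has a single probe set. It read -0.23 in Domain replicate 1 and 3.45 in Domain replicate 3, while RL4452 replicates 1 and 3 read 0.20 and -0.38. Domain replicate 3 was 9.54-fold above the next highest array, which was an RL4452 array. The genotypes overlapped, because Domain replicate 1 fell between the RL4452 arrays. Its suffix, _x_at, marks a probe set some of whose probes also match other sequences, so its signal may include other alpha-type gliadin copies.

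**Figure D1:**
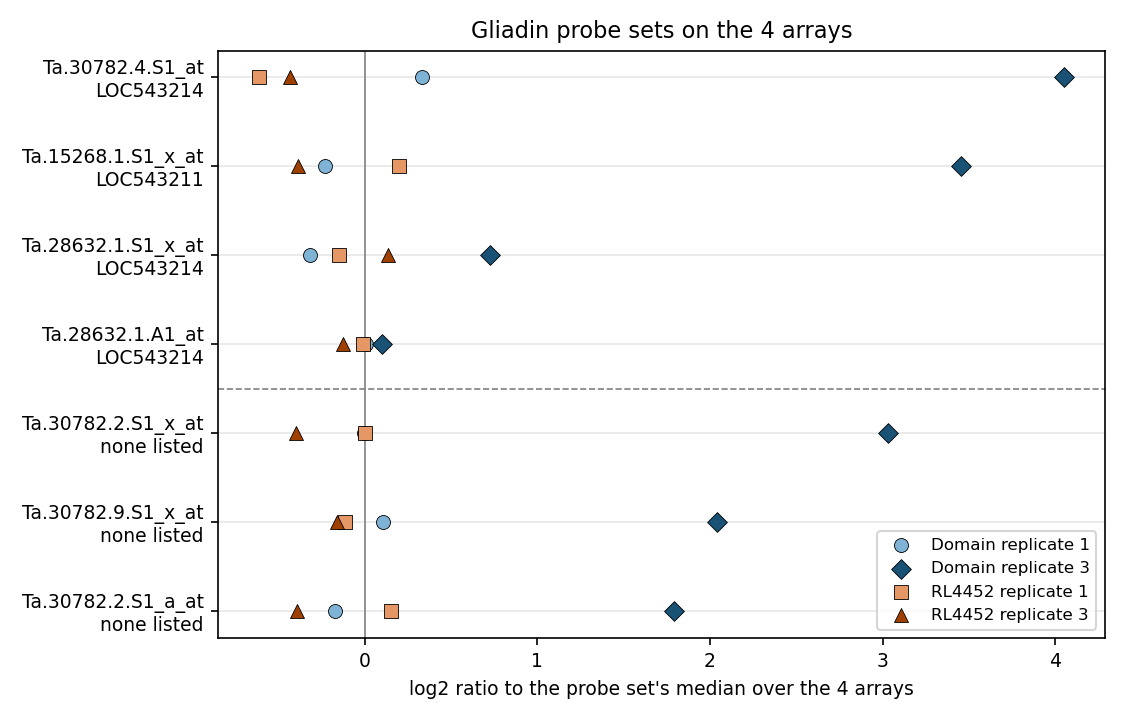
Log2 ratio (horizontal axis) of the 4 probe sets of LOC543214 and LOC543211, above the dashed line, and of the 3 others in the lead probe set's cluster, below it. Each point is 1 array. Domain replicate 3 is the highest array for all 7, from 0.10 for Ta.28632.1.A1_at to 4.05 for the lead probe set, drawn at the top.

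The 3 others in the lead probe set's cluster had the same high array. Ta.30782.2.S1_x_at read 0.00 and 3.03 in Domain replicates 1 and 3, while RL4452 replicates 1 and 3 read 0.00 and -0.40. Its Domain replicate 3 value was 8.15-fold above the next array, and Domain replicate 1 and RL4452 replicate 1 were nearly equal. Ta.30782.9.S1_x_at read 0.11 and 2.04 in the Domain arrays, and the RL4452 arrays read -0.11 and -0.16. For this probe set the high array stood 3.82-fold above the next, and the genotypes did not overlap.

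Ta.30782.2.S1_a_at read -0.17 and 1.79 in the Domain arrays, and the RL4452 arrays read 0.15 and -0.39. Domain replicate 3 was 3.12-fold above the next array, and Domain replicate 1 fell between the RL4452 arrays. The suffix _a_at marks probes shared by alternative transcripts of 1 gene. The probe sets of this cluster can share transcripts with the lead probe set and are not separate evidence beside it.

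Domain replicate 3 was the highest array for 4 of 4 probe sets of the 2 genes, against 25.1% of all probe sets tested. It was over 4-fold above every other array for 2 of the 4, against 0.0703% of all. The count was the same past 2-fold, against 0.257%, and past 8-fold, against 0.0262%. These shares are given as background only, since this array's values chose the genes. By size of this gap among 61179 probe sets, the lead gamma-gliadin probe set ranked 4 and that of LOC543211 ranked 10. Of the others in the lead's cluster, Ta.30782.2.S1_x_at ranked 16, Ta.30782.9.S1_x_at 47 and Ta.30782.2.S1_a_at 67. Ta.28632.1.S1_x_at ranked 627 and Ta.28632.1.A1_at 9785.

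**Figure D2:**
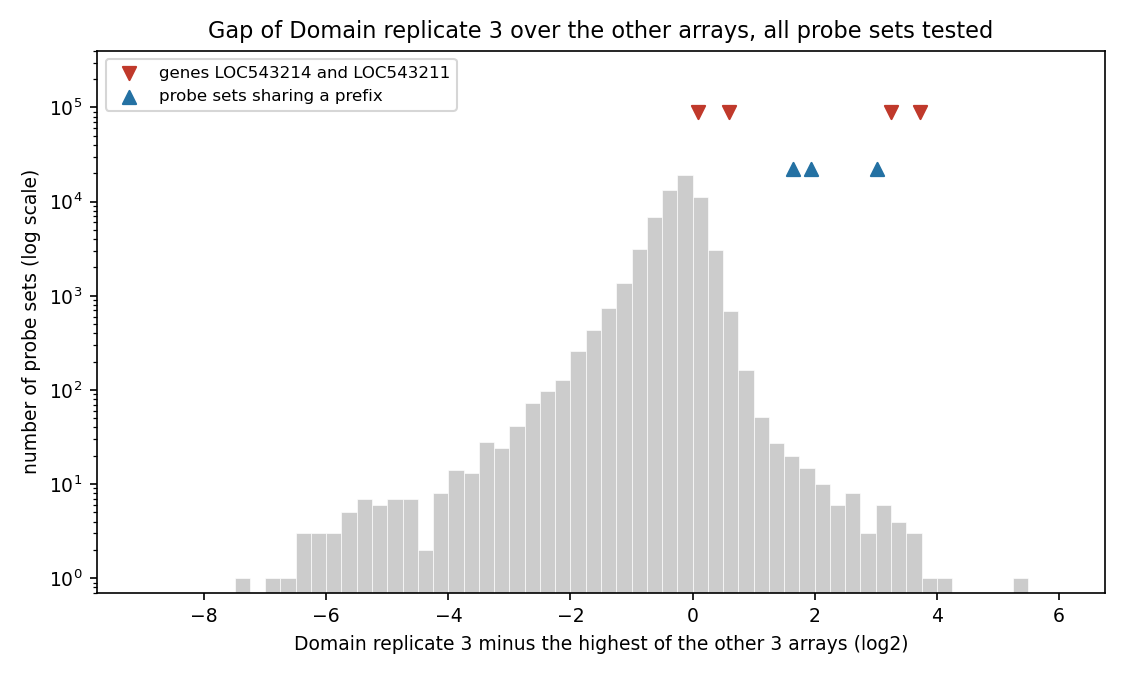
Domain replicate 3 minus the highest of the other 3 arrays (log2, horizontal axis) for all 61179 probe sets tested, with the number of probe sets on a log scale. Red markers are the 4 probe sets of LOC543214 and LOC543211 and blue markers the 3 others of the lead probe set's cluster, and the height of markers has no meaning. The red markers sit at 3.72, 3.25, 0.59 and 0.09, and the blue ones at 3.03, 1.93 and 1.64.

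Between the genotypes, the mean of every probe set of the 2 genes was lower in RL4452, and for 2 of the 4 the sign turned when Domain replicate 3 was left out. The lead gamma-gliadin probe set had a Domain mean of 2.19 ± 2.63 and an RL4452 mean of -0.52 ± 0.13 (SD, n = 2), so RL4452 minus Domain was -2.72 on the log2 scale. Leaving out Domain replicate 3 made it -0.86, and leaving out Domain replicate 1 made it -4.58. For LOC543211 the Domain mean was 1.61 ± 2.60 and the RL4452 mean -0.09 ± 0.41 (SD, n = 2), a difference of -1.70. Leaving out Domain replicate 3 turned it to 0.14, and leaving out Domain replicate 1 made it -3.54. In both cases the SD of the Domain arrays was about as large as the difference or larger.

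For Ta.28632.1.S1_x_at the Domain mean was 0.20 ± 0.74 and the RL4452 mean -0.01 ± 0.20 (SD, n = 2). The difference of -0.21 turned to 0.31 when Domain replicate 3 was left out, and was -0.73 when Domain replicate 1 was. Dropping either RL4452 array kept it negative, at -0.071 for replicate 1 and -0.35 for replicate 3. Ta.28632.1.A1_at had a Domain mean of 0.05 ± 0.06 and an RL4452 mean of -0.07 ± 0.08 (SD, n = 2), a difference of -0.12. It stayed between -0.18 and -0.065 whichever array was left out. The median difference of the 4 probe sets was -0.96, beside 0.01 for all probe sets tested. It was 0.03 when Domain replicate 3 was left out and -2.14 when Domain replicate 1 was.

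Domain and RL4452 did not overlap, with Domain the higher, for 2 of the 4, the lead probe set and Ta.28632.1.A1_at, against 15.5% of all probe sets. The nearest Domain and RL4452 arrays were 0.76 apart for the lead probe set and 0.02 apart for Ta.28632.1.A1_at. The same arrays had served to choose the genes, so nothing is read from this count.

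**Figure D3:**
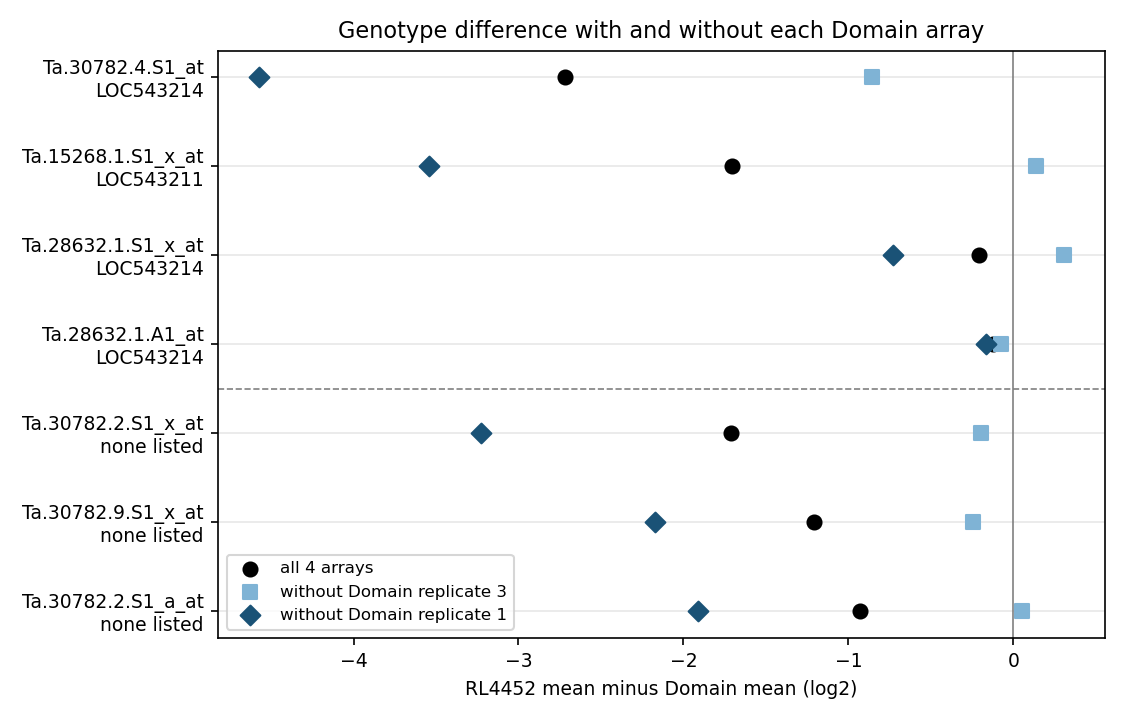
Difference RL4452 minus Domain (log2, horizontal axis) for the 4 probe sets of LOC543214 and LOC543211, above the dashed line, and the 3 others of the lead probe set's cluster, below it. Circles use all 4 arrays, squares leave out Domain replicate 3 and diamonds leave out Domain replicate 1. The squares lie between -0.86 and 0.31, and 3 of them are on the positive side.

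The 3 others of the lead probe set's cluster were taken by their names, but the cluster entered through the lead probe set, itself chosen by its values. Their rows of the fit across all probe sets are given as a description. None passed (limma, Benjamini-Hochberg adjusted p under 0.05), against 0.28% called among all probe sets. At an unadjusted p under 0.05 there were 0 of the 3, against 5.85% of all. Counts over 3 probe sets cannot be told apart from these shares. Ta.30782.2.S1_x_at differed by -1.71 with SE 0.98 (limma adjusted p = 0.955). Ta.30782.9.S1_x_at differed by -1.21 with SE 0.63 (limma adjusted p = 0.943), and Ta.30782.2.S1_a_at by -0.93 with SE 0.67 (limma adjusted p = 0.972). In the same order the differences were -0.20, -0.24 and 0.05 when Domain replicate 3 was left out, and -3.23, -2.18 and -1.91 when Domain replicate 1 was. A genotype difference at these probe sets was thus not larger than the spread between the Domain arrays.

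The arrays' technical record can be set beside the high array. Domain replicate 3 shared its fluidics module with RL4452 replicate 1, and each array was hybridised on a day of its own. Day and seed sample therefore cannot be told apart. Within that module, RL4452 replicate 1 minus Domain replicate 3 was -4.67 for the lead probe set, -3.25 for LOC543211, -0.87 for Ta.28632.1.S1_x_at and -0.11 for Ta.28632.1.A1_at. As a measure of RNA quality, 3' and 5' ends of wheat control transcripts, actin, GAPDH and ubiquitin among them, were compared in 7 pairs. The median log2 difference, 3' minus 5', was 0.00 in both Domain arrays, -0.22 in RL4452 replicate 1 and 0.40 in RL4452 replicate 3. Each end is a ratio to its own median, so 0 does not mean intact RNA. For 12 pairs of poly-A spike-ins, which are not seed RNA, it was -0.23 in both Domain arrays. In RL4452 replicates 1 and 3 the spike-in medians were -0.59 and 1.25. Seed RNA quality and the handling of an array therefore cannot be told apart in these values. The part of RNA quality in the gliadin values was not tested.

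Markers of other seed tissues were read in the same arrays. Embryo and late-seed genes (7 probe sets of Em, LEA and COR410) ran in Domain replicate 3 from -0.01 to 0.49 with a median of 0.10. Their medians were -0.15 in Domain replicate 1 and -0.11 and 0.14 in RL4452 replicates 1 and 3. Green tissue genes (31 probe sets of rbcL, PsbO and PsbP, which serve photosynthesis) had medians from -0.03 to 0.00 in the 4 arrays, and single probe sets ran from -0.28 to 0.72 in Domain replicate 3 and from -0.82 to 1.17 in RL4452 replicate 3. Raftin genes of the anther (4 probe sets) had a median of 0.02 in Domain replicate 3 and ran there from -0.04 to 0.44.

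Starch genes of the endosperm were represented by 2 probe sets. The ADP-glucose pyrophosphorylase gene AGP-S (LOC543299) read 0.34 and 0.14 in Domain replicates 1 and 3, while RL4452 replicates 1 and 3 read -0.16 and -0.67. The granule-bound starch synthase gene Wx-A1 (LOC543395), whose product makes amylose, read -1.28 and -2.00 in the Domain arrays, and the RL4452 arrays read 0.82 and 0.67. Neither gene was highest in Domain replicate 3. The part of any tissue in the gliadin values was not tested.

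The other listed genes with gli-2 synonyms did not share the size of the high value. The avenin-like gene avnla (LOC780582), treated below, also carries a gliadin-like synonym, LMGli2482. Its probe sets Ta.905.2.S1_at and Ta.905.2.S1_x_at had 2.37 and 2.35 in Domain replicate 3, 3.87-fold and 3.50-fold above the next array. LOC543210, LOC543212 and LOC543385 (synonyms of the gli-2 series) have 4 probe sets, with Domain replicate 3 values of -0.04 to 1.26 and at most 1.86-fold above the next array. The highest, Ta.24114.1.S1_x_at of LOC543210, read -0.49 and 1.26 in the Domain arrays, and the RL4452 arrays read -0.52 and 0.36. Domain replicate 1 and RL4452 replicate 1 were nearly equal there. The differences RL4452 minus Domain ran from -0.47 to -0.06 over the 4. Of these 0 passed, with limma adjusted p from 0.943 to 1.0, against 0.28% called among all probe sets. A count over 4 probe sets cannot be told apart from that share.

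The transcript cluster Ta.24114. of these genes was uneven as well. Of its 17 probe sets, looked at after values had been seen, 4 were over 4-fold above every other array in Domain replicate 3, against 0.0703% of all, and none of these 4 has a listed gene. Ta.24114.8.S1_x_at read 0.07 and 4.17 in the Domain arrays, and the RL4452 arrays read -0.16 and -0.08. Ta.24114.8.S1_at had 3.64 in that array, Ta.24114.11.S1_x_at 3.22 and Ta.24114.14.S1_x_at 2.33. Those of LOC543484 and LOC100037526, genes of the cluster with no gliadin synonym, were not highest in Domain replicate 3.

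Other storage and defence proteins of the grain were compared through a list of names that matched 23 probe sets of 12 genes, the 4 gliadin ones above included. The list and the 5 gene numbers added to it were set with earlier results of these data known. Several of its probe sets also belong to the same gene. Its counts and p-values, and those of its families below, are therefore a description and no independent evidence. Among the 23, the translation factor gene Eif4B (LOC543417) entered only because its synonym contains the letters ATI. None of the 23 passed (limma, Benjamini-Hochberg adjusted p from 0.423 to 1.0), against 0.28% called among all probe sets, a share from which this count cannot be told apart. Of the 23, 10 had an unadjusted p under 0.05, against 5.85% of all probe sets. The median difference was -1.41, with 21 lower and 2 higher in RL4452. Domain replicate 3 was the highest array for 21 of the 23, against 25.1% of all probe sets, and over 4-fold above every other array for 3, against 0.0703%.

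Low-molecular-weight glutenins, subunits of the gluten polymer, were close to level. The 3 probe sets of LOC543213 had 0.67, 0.48 and 0.09 in Domain replicate 3 and between -0.49 and 0.05 in the other arrays. The smallest p belonged to Ta.160.1.S1_x_at, with a difference of -0.35 and SE 0.27 (limma adjusted p = 0.974).

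Avenin-like proteins are cysteine-rich relatives of gliadins. Over their 6 probe sets the Domain replicate 3 value had a median of 2.21, and 5 of the 6 were over 2-fold above every other array, against 0.257% of all probe sets. The exception, Ta.27777.1.S1_at of LOC100125692, had -0.70 in Domain replicate 3 and was lowest there. The smallest p was that of avnla (LOC780582) at Ta.905.2.S1_x_at, with a difference of -2.47 and SE 0.61 (limma adjusted p = 0.497).

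Amylase and trypsin inhibitors (4 probe sets of LOC543281 and LOC543286), which act on digestive enzymes of insects and mammals, were also highest in Domain replicate 3, with a median of 1.77. Thionins (5 probe sets of 3 genes), small defence proteins that act on membranes, had a median of 1.73 there. In both families the genotypes did not overlap, for 4 of 4 and 5 of 5 probe sets, with Domain the higher, against 15.5% of all probe sets. With Domain replicate 3 left out the median difference was -2.08 for the inhibitors, -0.89 for the thionins and -0.54 for the avenin-like probe sets. It was 0.03 for the 4 gliadin probe sets, which ran from -0.86 for the lead probe set to 0.31 for Ta.28632.1.S1_x_at. For Domain these values rest on replicate 1 alone. That contrast between families was not tested. The RL4452 arrays were themselves uneven in both families. The inhibitors ran from -2.73 to -1.54 in RL4452 replicate 1 and from -0.93 to -0.34 in RL4452 replicate 3. The thionins ran from -2.63 to -0.32 and from -0.47 to -0.12 in the same arrays. The smallest p among inhibitors was that of Ta.58.1.S1_at (LOC543286), at -2.57 with SE 0.57 (limma adjusted p = 0.423), and among thionins that of Ta.1308.1.S1_at (LOC543413), at -1.57 with SE 0.47 (limma adjusted p = 0.665).

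**Figure D4:**
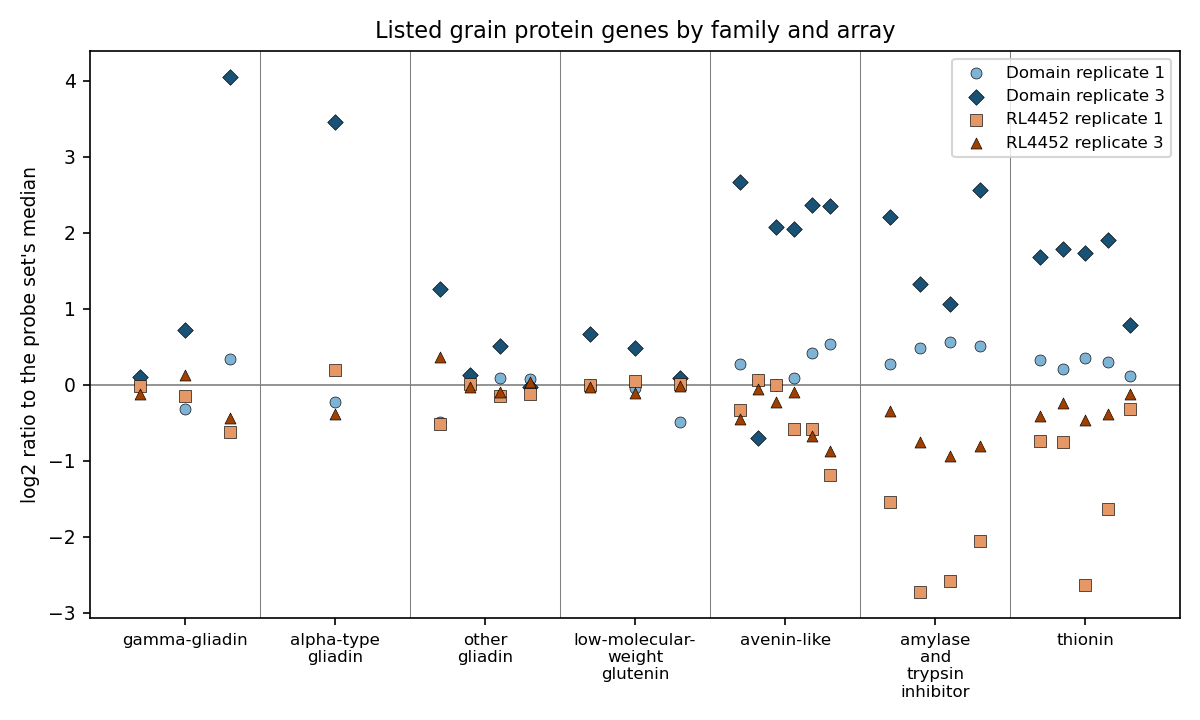
Log2 ratio (vertical axis) of every listed probe set of gliadins, glutenins, avenin-like proteins, amylase and trypsin inhibitors and thionins, side by side within its family, with 1 marker per array. Domain replicate 3 reaches 4.05 and 3.45 in the gamma and alpha-type gliadin panels, and RL4452 replicate 1 is lowest among the inhibitors, at -2.73.

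Likeness to the 2 high probe sets was measured as the Euclidean distance of the log2 values over the 4 arrays, as a description. Nearest to the lead gamma-gliadin probe set were Ta.23142.10.S1_x_at at a distance of 0.21, Ta.30756.1.S1_x_at at 0.57 and Ta.24114.8.S1_x_at at 0.64. None of these has a listed gene. Among the 1272 other probe sets with a listed gene, the nearest was that of LOC543211 at 1.16. It was followed by the avenin-like gene LOC100125692 at 1.42, LOC543308 at 1.48, LOC100125699 at 1.51 and avnla (LOC780582) at 1.70.

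Nearest to the LOC543211 probe set were Ta.23142.4.S1_s_at and Ta.24114.8.S1_at, both at 0.38, and Ta.24114.11.S1_x_at at 0.46, again without a listed gene. With a listed gene the nearest were LOC543308 at 0.92, LOC100125692 at 1.08, the lead probe set of LOC543214 at 1.16, LOC542851 at 1.18 and LOC542894 at 1.32. The other LOC543214 probe sets were farther off, Ta.28632.1.S1_x_at at 2.80 and Ta.28632.1.A1_at at 3.38. The lead probe set was nearer to the alpha-type gliadin probe set than to the others of its own gene, which lay 3.47 and 4.02 away. The high Domain replicate 3 values, which chose the genes, make up most of these distances, so nothing is read from this order.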

How the data were processed

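Per the submitters' processing notes, RMA was used, with its version and any later step not given in the sources used here. The deposited values are linear ratios. In 99.5% of 61290 features the median over the 4 arrays lay within 0.002 of 1, so each ratio is relative to its probe set's median and signal over background cannot be had. Precision is limited by having 4 arrays. Ratios were log2-transformed. After 111 AFFX control probe sets were left out, the remaining 61179 were fitted by limma 3.58.1 (R 4.3.3; lmFit, then eBayes with 2.99 prior degrees of freedom) with a term for genotype alone, two-sided, Benjamini-Hochberg over all. On simulated normal values with the same spread in both genotypes, the fit was only required to return the differences put in. That run does not cover a single array that stands far out, as in these data. Tables and figures used Python 3.11.15, pandas 2.3.3, numpy 2.4.6 and matplotlib 3.10.9.

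Of 771 annotated genes 770 were found in the gene table of IWGSC CS RefSeq v2.1, used for names alone. The list of grain proteins came from 34 name patterns, 25 of which matched no probe set, and 5 gene numbers. Named were all probe sets of the 2 genes and of shared clusters, the 5 nearest with a gene and 3 nearest of any kind, and the smallest p per family. Members and lists were chosen with earlier results of these data known. Alternatives were quantile normalization, median-centring, a robust prior, a replicate block, 1 fluidics module, probe sets without shared probes and each array left out.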

Additional observations from a re-analysis of the deposited data

How the results depend on the processing

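The median difference of the 4 gliadin probe sets was -0.96. It ran from -2.14 to 0.03 over arrays left out. It was -0.87 after quantile normalization, -0.97 after median-centring and -2.06 within the fluidics module of both genotypes. Without probe sets with shared probes only the lead probe set, at -2.72, and Ta.28632.1.A1_at, at -0.12, were left, with a median of -1.42. That run does not cover LOC543211. The median difference of the 3 others of the lead probe set's cluster, -1.21, ran from -2.18 to -0.20 over arrays left out. None of them was called in the fits on all 4 arrays, against 0.28% of all probe sets in the main fit. The median excess of Domain replicate 3 over the mean of the other arrays was 2.21 for the 4 gliadin probe sets. It lay between 2.08 and 2.29 under the alternatives computed for it, and the fluidics module was not among these. This excess chose the genes, so its steadiness is a description only. For the list of other grain proteins the median of -1.41 ran from -2.25 to -0.43 over arrays left out and was -2.42 within the module. In the fits on all 4 arrays 0 of 23 were called, against 0.28% of all probe sets in the main fit.

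Over all probe sets limma called 171. With a replicate block it called 0 (4555 at an unadjusted p under 0.05). The labels do not say that a number pairs samples. Across probe sets, the difference between replicates in Domain correlated at 0.143 with that in RL4452. Calls ran from 0 to 128 over arrays left out, with 0 without Domain replicate 1 (3292 at an unadjusted p under 0.05), 0 without Domain replicate 3 (3418) and 101 without RL4452 replicate 1. Where 1 array was left alone, its spread was taken from the other genotype.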

Other observations

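Outside the gliadin genes and the grain protein list, the cluster Ta.23142. had the most probe sets over 4-fold above every other array in Domain replicate 3, and it has no listed gene. These were 7 of its 9 probe sets, and the Domain replicate 3 values ran from -0.04 to 4.26 with a median of 3.21. It was looked at after its values had been seen. Its median difference RL4452 minus Domain was -2.32, and -0.83 without Domain replicate 3.

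In Domain replicate 3, 16 probe sets were over 8-fold above every other array. They came from 8 transcript clusters: 5 from Ta.23142., 3 from Ta.24114., 2 from the cluster of the lead gamma-gliadin probe set, 2 from Ta.27780., and 1 each from the LOC543211 cluster, Ta.12643., Ta.27778. and Ta.30756. Only 2 of the 16 have a listed gene, LOC543214 and LOC543211. In Domain replicate 1, 38 probe sets passed the same threshold, and in each RL4452 array 0 did. The probe set with the largest excess, Ta.12643.5.S1_x_at, read 0.37 in Domain replicate 1 and 5.85 in Domain replicate 3, while RL4452 replicates 1 and 3 read -0.51 and -0.89.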
